A study of Mus musculus with 7 samples.

Results

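The adrenomedullin and CXCL12 axes are described here through 8 genes: the ligand genes Adm and Cxcl12, the receptor genes Calcrl, Cxcr4 and Ackr3, and the genes Ramp1, Ramp2 and Ramp3 for the receptor activity-modifying proteins. They were picked by symbol, as 8 of the 49585 gene rows in the files, with earlier results of the same contrast known, so their differences between the groups are given as a description. RNA was sequenced from MS-1 cells, a mouse endothelial cell line from pancreatic islets, in 4 libraries labelled LPL overexpression and 3 labelled control, whose genotype is given as WT. LPL is lipoprotein lipase, the enzyme that frees fatty acids from triglyceride in lipoproteins, and the comparison asks what its overexpression does to the transcriptome of an endothelial line. All cells were grown in DMEM. The labels name no vector, promoter or clone for the overexpression and no vector-only control. They also do not say whether replicates were separate cultures, so the p-values measure the spread between these libraries, which may be technical.

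Adrenomedullin is a secreted peptide that widens vessels and tightens the endothelial barrier, and loss of the peptide or its receptor in mice causes fatal oedema before birth. Its receptor is the class B G protein-coupled receptor CALCRL, which needs a RAMP partner to reach the cell surface and to choose its ligand. With RAMP1 it binds the calcitonin gene-related peptide CGRP, and with RAMP2 or RAMP3 it binds adrenomedullin and raises cyclic AMP. CXCL12 is a chemokine that guides leukocytes, stem cells and growing vessels through CXCR4, a receptor coupled to Gi proteins. ACKR3, once called CXCR7, also binds CXCL12 but signals through arrestins and takes the chemokine up for degradation, and it has been shown to take up adrenomedullin in mice as well, which ties the axes together.

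Libraries held between 24328418 and 29210847 reads in the sense orientation, and 13639 genes were tested. Lpl had between 10867 and 12753 reads in the LPL overexpression libraries, against 1 to 6 in the control libraries. Endothelial markers were abundant as a sum in both groups, in TPM (a level scaled to gene length and depth). The 12 of them summed to 4166 to 4280 TPM in LPL overexpression libraries and 4604 to 4610 TPM in controls. Not each of them was abundant. Cldn5 had 0 reads over the LPL overexpression libraries and 1 over the controls. Vwf stood at 0.28 TPM with LPL overexpression and 0.24 TPM in controls. The LPL overexpression libraries also carried pigment cell transcripts. All 13 pigment cell markers were higher there and summed to 2326 to 2460 TPM, against 10.3 to 10.6 TPM in controls, where Tyr, Tyrp1, Dct, Mlana, Oca2 and Sox10 had 0 reads. All 13 had an adjusted p under 0.05 in edgeR, as did 43.2% of all genes tested (21.9% higher and 21.3% lower). The markers with 0 control reads passed the filter for testing only through the LPL overexpression libraries. The part of these transcripts in the differences below was not tested, and in bulk RNA fewer cells of a type and less RNA per cell cannot be told apart. In Irf1, the gene of a transcription factor that interferons induce, LPL overexpression replicate 4 was unlike the rest, with 240.0 TPM against 16.1 to 18.4 TPM in the other LPL overexpression libraries. Fold changes of Adm, Ramp3 and Hspg2 are given with and without this library. Those of the other genes outside the 8 are given with it only, also where it was the extreme library of its group, as in Rgs2, Cxcl10 and Pf4. It was also the highest of its group in Calcrl and the lowest in Cxcl12, whose log2 fold changes without it were -1.02 and -0.16.

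The start regions of Adm, Calcrl and Ackr3 are shown because Adm was the member that was higher and Calcrl and Ackr3 were the members with the largest differences. RefSeq promoters (GRCm38.p6, the assembly of mm10) were available for 7 of the 8 genes and cover 250 bases before and 50 after the start that RefSeq annotates. Calcrl as counted here reaches 84425411, so part of the bases shown before its RefSeq start lie within the counted gene. In the sequences, written 5′ to 3′ on the gene's strand, capitals mark GCGTG on either strand (CACGC on the strand shown) and TATAAA. The windows lie at chr7:110627407-110627706 on the plus strand for Adm, chr2:84425217-84425516 on the minus strand for Calcrl and chr1:90203730-90204029 on the plus strand for Ackr3.
Adm: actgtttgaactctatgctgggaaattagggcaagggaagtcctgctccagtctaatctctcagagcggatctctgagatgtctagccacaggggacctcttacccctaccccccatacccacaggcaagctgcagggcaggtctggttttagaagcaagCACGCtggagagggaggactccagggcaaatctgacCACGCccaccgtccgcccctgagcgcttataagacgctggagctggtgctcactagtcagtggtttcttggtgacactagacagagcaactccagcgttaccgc
Calcrl: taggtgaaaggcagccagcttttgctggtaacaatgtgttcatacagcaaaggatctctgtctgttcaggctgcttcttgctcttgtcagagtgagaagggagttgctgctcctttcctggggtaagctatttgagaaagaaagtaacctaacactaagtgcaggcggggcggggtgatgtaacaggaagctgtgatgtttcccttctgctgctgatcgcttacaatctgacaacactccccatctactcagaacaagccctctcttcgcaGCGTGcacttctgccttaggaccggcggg
Ackr3: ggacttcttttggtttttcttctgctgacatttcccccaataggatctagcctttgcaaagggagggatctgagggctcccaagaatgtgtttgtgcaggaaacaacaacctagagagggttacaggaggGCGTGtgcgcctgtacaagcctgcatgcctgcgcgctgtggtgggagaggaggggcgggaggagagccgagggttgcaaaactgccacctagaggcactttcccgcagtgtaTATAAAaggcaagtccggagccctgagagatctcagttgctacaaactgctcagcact
The core motif of hypoxia-inducible factors, ACGTG or GCGTG, was searched on both strands because Adm, Cxcr4 and Ackr3 are known as hypoxia-induced genes. ACGTG was in 0 of the 7 windows and in 19.6% of all 32851 promoter windows of this length. GCGTG was in 5 of the 7, those of Adm, Calcrl, Ackr3, Cxcr4 and Ramp3, and in 32.4% of all windows. Either core can overlap the other only on the opposite strand or in part. In Adm GCGTG lay 90 and 54 bases before the start, in Ackr3 120 bases before it, and in Calcrl within the transcribed bases. The cyclic AMP response element TGACGTCA was in 0 of the 7 windows and in 1.79% of all, and TATAAA in 2 (Ackr3 and Cxcr4) and in 13.6% of all. These matches describe the letters only.

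Adm was the only one of the 7 tested genes whose level was higher with LPL overexpression. The gene lies on the plus strand of chromosome 7, from 110627661 to 110629820 (mm10), and reads were counted over its exons, 4 of them in its coding transcript. Its level was 81.7, 81.0, 81.0 and 86.6 TPM in LPL overexpression replicates 1 to 4, against 63.6, 62.8 and 61.5 TPM in control replicates 1 to 3. Every LPL overexpression library lay above every control library. The means were 82.6 ± 2.70 TPM (SD, n = 4) with LPL overexpression and 62.6 ± 1.08 TPM (SD, n = 3) in controls. The log2 fold change fitted by edgeR was 0.37 with a standard error (SE) of 0.04, and Adm stood at 129% of its control level. Replicate 4, the library with high Irf1, was also the highest in Adm. Without it the LPL overexpression mean was 81.2 ± 0.404 TPM (SD, n = 3) and the log2 fold change 0.36.

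Cxcl12 was the most abundant member in both groups and differed least. It lies on the plus strand of chromosome 6, from 117168535 to 117181367. The level was 278, 274, 278 and 272 TPM in the LPL overexpression libraries, against 316, 296 and 304 TPM in the controls. All LPL overexpression libraries were below all controls, by a narrow margin. edgeR gave a log2 fold change of -0.18 (SE 0.02), so that Cxcl12 stood at 88.6% of its control level. With 16836 to 21200 reads per library this gene had the smallest counting error of the 8.

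Calcrl, the receptor that adrenomedullin and CGRP share, was at 49.7% of its control level. The gene lies on the minus strand of chromosome 2, from 84330626 to 84425411, with 16 exons in a coding transcript. Its level was 8.19, 7.96, 8.31 and 8.62 TPM in the LPL overexpression libraries, against 15.1, 16.9 and 17.0 TPM in the controls. The groups were far apart relative to their spread, with means of 8.27 ± 0.271 TPM (SD, n = 4) with LPL overexpression and 16.3 ± 1.02 TPM (SD, n = 3) in controls. On the log2 scale the fitted difference was -1.01 (SE 0.06). Between 296 and 351 reads per LPL overexpression library and between 607 and 698 per control library lay behind these levels.

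Of the RAMP genes, Ramp2 was abundant, Ramp3 low and Ramp1 close to absent. Ramp2, whose product turns CALCRL into the main adrenomedullin receptor of endothelium, had 129, 135, 140 and 135 TPM in the LPL overexpression libraries, against 163, 160 and 151 TPM in the controls. The groups did not overlap, and the log2 fold change was -0.26 (SE 0.03). Ramp2 lies on the plus strand of chromosome 11, from 101246028 to 101259546. Its annotated exons take in 1103 bases (67.2%) of the exons of Vps25, the next gene on the same strand, an ESCRT component. Vps25 had 53 reads over the LPL overexpression libraries and 44 over the controls, so how reads of the shared bases were counted bears on both genes. If no read of the shared bases was counted to Ramp2, its level per length was 202 ± 6.42 TPM (SD, n = 4) with LPL overexpression and 237 ± 9.32 TPM (SD, n = 3) in controls.

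Ramp3, which gives CALCRL a different adrenomedullin receptor with its own trafficking, had 7.34, 7.23, 8.14 and 9.12 TPM in the LPL overexpression libraries, against 11.1, 10.2 and 13.6 TPM in the controls. The groups did not overlap, though the highest LPL overexpression library, replicate 4, came near the lowest control. The log2 fold change was -0.58 (SE 0.12), and -0.64 without LPL overexpression replicate 4. Ramp3 lies on the plus strand of chromosome 11, from 6658521 to 6677475. Ramp1, needed for the CGRP receptor, had 1 read over all 4 LPL overexpression libraries and 0 over the 3 controls. A floor of 3 reads over the group corresponds to 0.0283 CPM (reads scaled to library size) with LPL overexpression and 0.0366 CPM in controls, so Ramp1 was below that floor in both groups and no fold change is given.

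Ackr3, the scavenging receptor, was at 48.6% of its control level, the largest difference among the 8. The gene lies on the plus strand of chromosome 1, from 90203980 to 90216751, and has 2 exons. Its level was 21.0, 21.8, 20.2 and 21.8 TPM in the LPL overexpression libraries, against 45.6, 40.3 and 42.9 TPM in the controls. No LPL overexpression library came near a control library. The fitted difference was -1.04 on the log2 scale (SE 0.04). Over all genes tested, 70 were past the threshold and lower by at least 2-fold, and Ackr3 and Calcrl were among them.

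Cxcr4, the signalling receptor of CXCL12, was near the limit of what these libraries measure. It lies on the minus strand of chromosome 1, from 128588199 to 128592293. The reads numbered 29, 20, 35 and 37 in the LPL overexpression libraries, against 37, 64 and 57 in the controls. In TPM the values were 2.17, 1.24, 2.56 and 2.45 in the LPL overexpression libraries, against 2.49, 4.17 and 3.93 in the controls. The groups overlapped, since control replicate 1 lay below LPL overexpression replicate 3. The log2 fold change was -0.79 with an SE of 0.20 and a 95% interval from -1.20 to -0.38. Libraries of one group varied by 28.5% of their mean with LPL overexpression and by 25.7% in controls, where counting error alone gives 18.2% with LPL overexpression and 13.8% in controls.

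**Figure D1:**
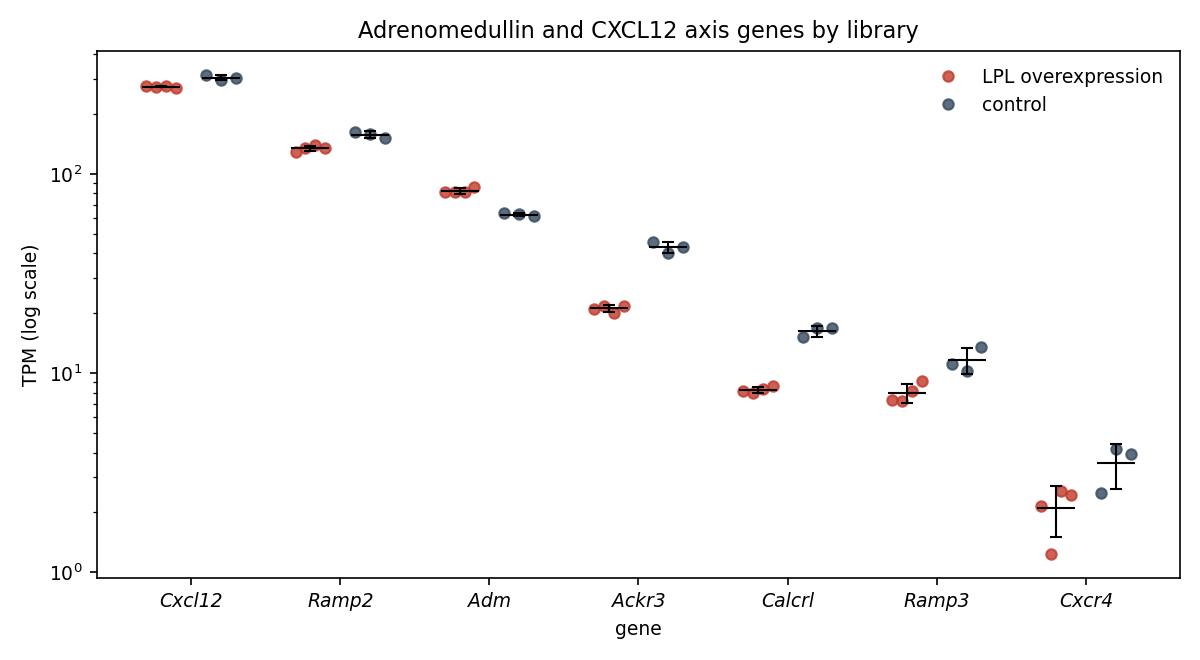
Level of 7 member genes in each library, in TPM on a log axis, with LPL overexpression libraries (red, n = 4) left of control libraries (dark blue, n = 3). Points are libraries, and bars give the mean and SD. The groups are separate for 6 genes and overlap for Cxcr4. Adm is the gene whose LPL overexpression libraries are the higher ones, and Ramp1 is left out, with 1 read in all.

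Of the 8 genes, 7 had enough reads for the edgeR fit over all genes, and all 7 had an adjusted p under the threshold of 0.05, with 1 higher and 6 lower. Among all 13639 genes tested 43.2% were past that threshold, 21.9% higher and 21.3% lower. Because the genes were chosen with this contrast known, nothing is read from the difference between these shares. In TPM the groups did not overlap for 1 member that was higher and 5 that were lower, and for 27.3% and 17.6% of all genes tested, 44.9% in either direction. The median absolute log2 fold change of all genes tested was 0.12. Of the genes past the threshold 50.7% were higher, a share that was 65.1% when only library totals were used for scaling, 61.3% on log2(TPM + 0.5) and 61.4% on log2(TPM + 0.1). The direction of all 7 members was the same under each of these settings.

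**Figure D2:**
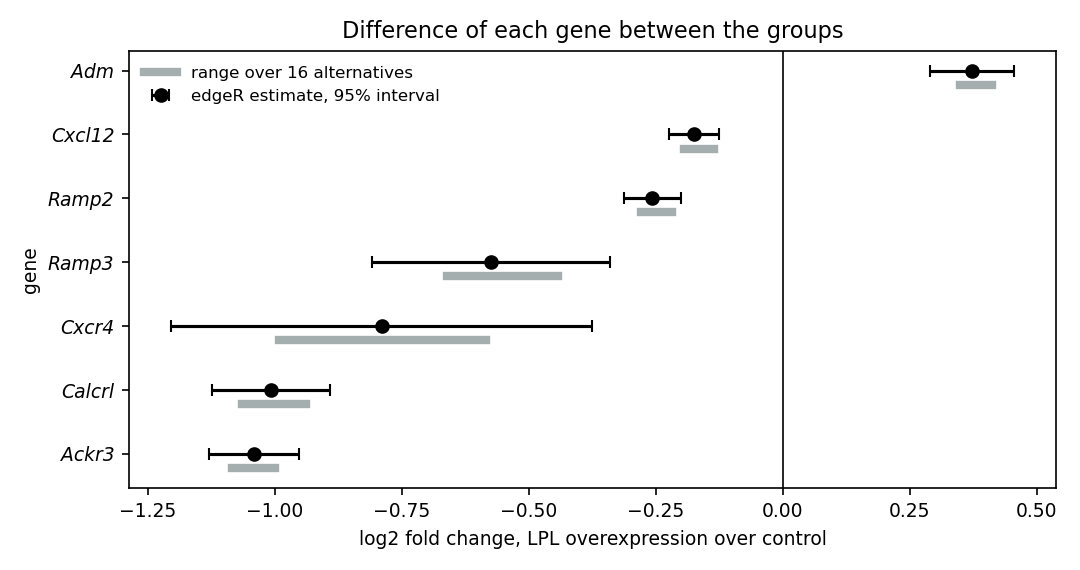
Log2 fold change of LPL overexpression over control for 7 genes, as the edgeR estimate with its 95% interval (black) and the range over 16 alternative settings (grey). The intervals of Calcrl and Ackr3 lie near -1, those of Cxcl12 and Ramp2 between -0.31 and -0.13, and that of Adm above 0.

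The order of levels was the same in both groups, from Cxcl12 through Ramp2, Adm, Ackr3, Calcrl, Ramp3 and Cxcr4 to Ramp1. In controls no neighbouring genes in that order overlapped in TPM. With LPL overexpression Calcrl and Ramp3 overlapped, at 8.27 ± 0.271 and 7.96 ± 0.874 TPM (SD, n = 4). Ramp2 made up 94.4% ± 0.514 (SD, n = 4) of the summed RAMP level with LPL overexpression and 93.1% ± 1.20 (SD, n = 3) in controls, shares that overlapped between the groups. The share of Ramp2 and its ratio to Calcrl below use the deposited level of Ramp2. Both depend on how reads of the bases shared with Vps25 were counted. The Ramp1 share was 0.0261% in the library with 1 read.

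Ratios within a library put these differences side by side, as a description. Adm exceeded Calcrl 9.97, 10.2, 9.74 and 10.1 times in the LPL overexpression libraries and 4.20, 3.72 and 3.62 times in the controls. Ramp2 exceeded Calcrl 16.3 ± 0.645 times (SD, n = 4) with LPL overexpression and 9.73 ± 0.962 times (SD, n = 3) in controls. The adrenomedullin ligand and its main RAMP had more transcript per transcript of receptor. Cxcl12 exceeded Ackr3 13.0 ± 0.602 times (SD, n = 4) with LPL overexpression and 7.12 ± 0.215 times (SD, n = 3) in controls. Its ratio to Cxcr4 overlapped between the groups, at 142 ± 53.2 (SD, n = 4) with LPL overexpression and 91.7 ± 30.5 (SD, n = 3) in controls. Adm exceeded Ackr3 3.90 ± 0.133 times (SD, n = 4) with LPL overexpression and 1.46 ± 0.0848 times (SD, n = 3) in controls. The ratio of Ackr3 to Calcrl overlapped between the groups, at 2.57 ± 0.130 (SD, n = 4) with LPL overexpression and 2.64 ± 0.328 (SD, n = 3) in controls. Ackr3 exceeded Cxcr4 9.70, 17.6, 7.88 and 8.89 times in the LPL overexpression libraries and 18.3, 9.66 and 10.9 times in the controls, and these values overlapped.

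**Figure D3:**
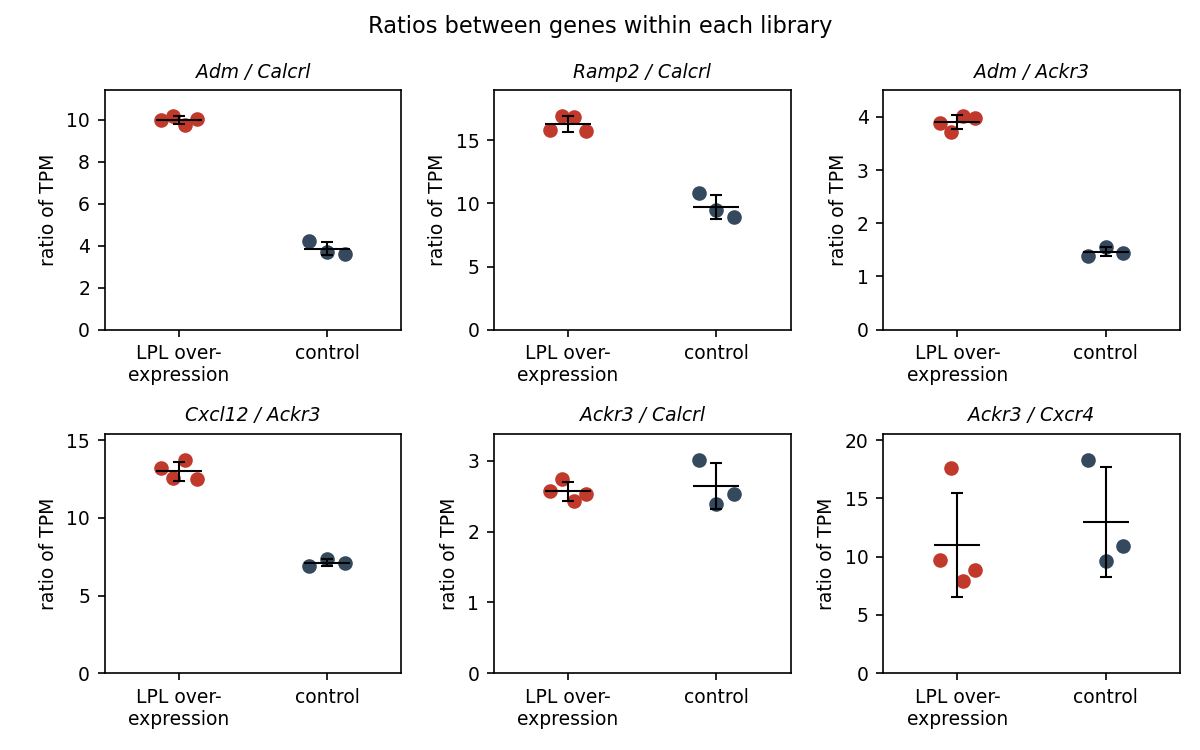
Ratio of TPM between pairs of genes within each library, with LPL overexpression (red, n = 4) left of control (dark blue, n = 3), and bars for the mean and SD. Adm, Ramp2 and Cxcl12 relative to Calcrl or Ackr3 are separate between the groups and higher with LPL overexpression, while the ratios of Ackr3 to Calcrl and to Cxcr4 overlap.

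The genes most like each of 6 members were sought among 9632 tested genes with at least 5 CPM, by the root-mean-square (RMS) difference between log2 CPM profiles over the 7 libraries, each centred on its own mean. Cxcr4, with a mean under 2 CPM, and Ramp1, which was not tested, were left out. Adm was closest to Ass1 (RMS difference 0.0171), the argininosuccinate synthase gene, and then to Lifr and Rasa3. Calcrl was closest to Itga6 (0.0532), the laminin receptor subunit integrin alpha 6, and then to Arhgef3 and Chst1. Ackr3 was closest to Srgn (0.0707), the proteoglycan serglycin, and then to Il24 and Mcf2l. Ramp2 was closest to Mex3c, Rap1b and Zfp367, Cxcl12 to Lsm14b, Marf1 and Tcea1, and Ramp3 to Tns1, Cbfa2t3 and F2rl3. The difference between the groups enters each profile, so genes with a fold change of similar size come out as alike. Itga6 differed by -0.93 on the log2 scale and Srgn by -1.02, beside -1.01 for Calcrl and -1.04 for Ackr3.

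Other ligands of the calcitonin family were close to absent, while the machinery that matures adrenomedullin was present. Of 10 genes for such ligands, their receptor CALCR, maturation and clearance, 4 passed the filter for testing. Of these 1 fell and 3 were not past the threshold (25.0% called, beside 43.2% of all genes tested). The median difference of the tested genes was 0.01 on the log2 scale beside 0.00 over all genes. Adm2, Calca, Calcb and Iapp had 0 to 5 reads over each group, and Calcr had 0. Pam, the amidating enzyme without which adrenomedullin is inactive, stood at 51.1 ± 1.15 TPM (SD, n = 4) with LPL overexpression and 48.4 ± 1.80 TPM (SD, n = 3) in controls, a difference of 0.05 on the log2 scale (SE 0.03, adjusted p = 0.142 in edgeR). Pam passed, as higher, with upper-quartile factors, library totals only, and without control replicate 2 (0.08 on the log2 scale). The gene that fell was Ece1, an endothelin-converting peptidase, at 122 ± 6.54 TPM (SD, n = 4) with LPL overexpression and 145 ± 2.69 TPM (SD, n = 3) in controls (log2 fold change -0.28, SE 0.03, adjusted p = 8.41e-10 in edgeR). Mme, the gene of neprilysin, a peptidase that degrades adrenomedullin, had 28 reads over the LPL overexpression libraries and 0 over the controls, at least 7.22-fold higher against the floor of 3 reads over the group. It was named after its values were seen.

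Other receptors known to bind RAMPs were nearly silent. Of 12 such genes 0 had enough reads to be tested and 6 had no read at all. The most abundant by counts were Pth1r, with 47 reads over the LPL overexpression libraries and 24 over the controls, and Vipr2, a receptor of vasoactive intestinal peptide, with 31 over the LPL overexpression libraries and 0 over the controls. Vipr2 was at least 7.99-fold higher against the floor. Each of the 12 stayed below 1 TPM in each library, where Calcrl had 7.96 TPM or more.

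Of 32 genes of cyclic AMP signalling, 23 were tested, 8 rose, 6 fell and 9 did not pass. The share called was 60.9%, beside 43.2% of all genes tested (21.9% higher and 21.3% lower), and nothing particular to the list is read from it. Adcy2, Adcy3 and Adcy7, with 0, 2 and 21 reads over the controls, passed the filter through the LPL overexpression libraries. For such genes a call as higher was close to fixed by the filter. The median over those tested was 0.01 on the log2 scale. Prkar2a, a regulatory subunit of protein kinase A, rose to 80.8 ± 2.25 TPM (SD, n = 4) with LPL overexpression, against 47.4 ± 1.22 TPM (SD, n = 3) in controls (log2 fold change 0.74, SE 0.03, adjusted p = 5.64e-28 in edgeR). Adcy7, an adenylyl cyclase gene, rose to 3.64 ± 0.271 TPM (SD, n = 4) with LPL overexpression, against 0.127 ± 0.0345 TPM (SD, n = 3) in controls (log2 fold change 4.80). The fold change of Adcy7 was smaller, at 2.18, with reads in both orientations, and it was 2.72 on log2(TPM + 0.5) and 4.05 on log2(TPM + 0.1). Adcy2, another adenylyl cyclase gene, had 110 reads over the LPL overexpression libraries and 0 over the controls, at least 28.4-fold higher against the floor, and was named after its values were seen. The adenylyl cyclase gene with the highest level, Adcy4, went the other way. It fell to 229.8 ± 5.57 TPM (SD, n = 4) with LPL overexpression, against 266 ± 1.23 TPM (SD, n = 3) in controls (log2 fold change -0.24, SE 0.02, adjusted p = 1.61e-11 in edgeR). Adcy3 rose, and Adcy6 and Adcy9 did not pass. Adcy4 and these genes were also named after their values were seen. Rapgef4, the gene of the cyclic AMP sensor EPAC2, differed by 0.40 on the log2 scale (SE 0.07). Rap1b, the small GTPase that EPAC proteins activate and a regulator of endothelial junctions, fell to 230.4 ± 5.64 TPM (SD, n = 4) with LPL overexpression, against 272 ± 9.44 TPM (SD, n = 3) in controls (log2 fold change -0.26, SE 0.03). Gnas, the stimulatory G protein alpha subunit, differed by -0.08 on the log2 scale (SE 0.02, adjusted p = 0.00584 in edgeR), a call that ended with upper-quartile factors (adjusted p = 0.0638 in edgeR), with library totals only and on TPM. Prkar1a was at 307 ± 2.94 TPM (SD, n = 4) with LPL overexpression and 298 ± 5.42 TPM (SD, n = 3) in controls and did not pass. The libraries in which these genes rose are those whose 13 pigment cell markers summed to 2326 to 2460 TPM, and the part of those markers in the rises was not tested.

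On the side of CXCR4, of 33 genes of Gi signalling 25 were tested, 3 rose, 8 fell and 14 did not pass. The share called was 44.0%, close to the 43.2% of all genes tested, and 15 of the genes passed with library totals only. The median difference of the tested genes was 0.01 on the log2 scale. The largest fall was in Rgs2, a regulator that shortens G protein signals, with 58.3, 59.0, 53.8 and 45.0 TPM in the LPL overexpression libraries, against 103, 97.8 and 104 TPM in the controls. Its groups were separate, and replicate 4 was the lowest of the LPL overexpression libraries (log2 fold change -0.94, SE 0.10, adjusted p = 7.94e-04 in edgeR). Pik3cg, the phosphoinositide 3-kinase gamma gene, differed by -0.26 on the log2 scale (SE 0.07) and Rac1, a GTPase of cell migration, by -0.24 (SE 0.03). Stat3 rose to 25.7 ± 0.941 TPM (SD, n = 4) with LPL overexpression, against 14.8 ± 0.194 TPM (SD, n = 3) in controls (log2 fold change 0.77, SE 0.04), and Gng12, a G protein gamma subunit, differed by 0.39 on the log2 scale (SE 0.03). The other that rose was Gnb4 (2.17, SE 0.19), a beta subunit gene named after its values were seen. It was low in both groups, at 0.753 ± 0.0618 TPM (SD, n = 4) with LPL overexpression and 0.163 ± 0.0450 TPM (SD, n = 3) in controls. Gnai2, the most abundant Gi alpha subunit gene here, was at 490 ± 3.69 TPM (SD, n = 4) with LPL overexpression and 478 ± 9.43 TPM (SD, n = 3) in controls, and differed by 0.01 on the log2 scale (SE 0.02, adjusted p = 0.797 in edgeR).

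Genes that switch off and traffic these receptors differed by small amounts. Of 21 genes, 20 were tested, 3 rose, 6 fell and 11 did not pass, so that 45.0% were called, close to the 43.2% of all genes tested. The median over those tested was -0.03 on the log2 scale. Grk5, a receptor kinase gene, fell to 54.2 ± 0.732 TPM (SD, n = 4) with LPL overexpression, against 67.2 ± 1.82 TPM (SD, n = 3) in controls (log2 fold change -0.34, SE 0.04, adjusted p = 3.25e-11 in edgeR). Arrb1, the gene of beta-arrestin 1, through which ACKR3 is known to act, was at 236 ± 4.19 TPM (SD, n = 4) with LPL overexpression and 216 ± 4.65 TPM (SD, n = 3) in controls, a difference of 0.10 on the log2 scale (SE 0.02). Nedd4, a ubiquitin ligase gene, differed by 0.16 on the log2 scale (SE 0.02), and Snx1, named after its values were seen, by 0.09. Stam, an endosomal sorting gene, differed by -0.13 on the log2 scale (SE 0.04) and Nsf, a vesicle fusion gene, by -0.12 (SE 0.03). The calls of Stam and Nsf ended on log2(TPM + 0.5) (adjusted p = 0.0556 and 0.0534 in limma), where 5 genes of the list passed in place of 9, and that of Stam also without control replicate 2 (adjusted p = 0.0512 in edgeR).

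Partners of CXCL12 were measured too. Of 20 genes for other ligands of its receptors, enzymes that cleave it and heparan sulphate carriers, 11 were tested, 3 rose, 1 fell and 7 did not pass (36.4% called, beside 43.2% of all genes tested). The median difference of the tested genes was -0.02 on the log2 scale. Mmp2, a gelatinase gene whose product cleaves CXCL12, rose to 11.8 ± 1.07 TPM (SD, n = 4) with LPL overexpression, against 8.23 ± 0.606 TPM (SD, n = 3) in controls (log2 fold change 0.49, SE 0.08). Sdc4, the gene of syndecan 4, differed by 0.28 on the log2 scale (SE 0.06). Hmgb1, which can bind CXCL12, fell to 232 ± 6.87 TPM (SD, n = 4), against 271 ± 4.14 TPM (SD, n = 3) in controls (log2 fold change -0.25, SE 0.03). Mif, the gene of a cytokine that binds CXCR4 and ACKR3, differed by 0.07 on the log2 scale (SE 0.03, adjusted p = 0.0209 in edgeR), and that call ended without control replicate 2 (adjusted p = 0.104 in edgeR). Hspg2, the gene of perlecan, differed by -0.16 on the log2 scale (SE 0.07, adjusted p = 0.119 in edgeR) and was past the threshold at -0.20 without LPL overexpression replicate 4 and at -0.21 with the replicate number as a block.

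Receptors and ligands of other chemokines were sparse. Of 23 other chemokine receptor genes 10 had no read in either group and 1 was tested, Cmklr1, the chemerin receptor gene, which fell to 0.326 ± 0.107 TPM (SD, n = 4) with LPL overexpression, against 1.23 ± 0.159 TPM (SD, n = 3) in controls. Ccrl2, next by CPM, had 36 reads over the LPL overexpression libraries and 12 over the controls. Ackr3 therefore stood more than an order of magnitude above every other receptor of the list in TPM, in both groups. Of 31 other chemokine ligand genes 9 were tested, 3 rose, 1 fell and 5 did not pass (44.4% called, beside 43.2% of all genes tested). The median over those tested was 0.38 on the log2 scale. Ccl2, a monocyte chemoattractant, had 14.7, 11.9, 12.2 and 14.6 TPM in the LPL overexpression libraries, against 8.88, 9.94 and 8.21 TPM in the controls, and its groups were separate (log2 fold change 0.54, SE 0.12). Ccl5 rose to 14.1 ± 0.472 TPM (SD, n = 4), against 9.24 ± 2.37 TPM (SD, n = 3) in controls (log2 fold change 0.58, SE 0.13), and Pf4 differed by 0.49 on the log2 scale (SE 0.14). Cxcl10, an interferon-induced chemokine, had 6.66, 5.08, 6.98 and 9.47 TPM in the LPL overexpression libraries, highest in replicate 4, against 5.57, 5.50 and 4.76 TPM in the controls. Its log2 fold change of 0.39 (SE 0.17) had an adjusted p of 0.0741 in edgeR, and it passed without LPL overexpression replicate 2 (0.53), with upper-quartile factors (adjusted p = 0.0488 in edgeR), with library totals only (0.0476) and with no filter on low counts (0.00316). Ccl25 was at 3.89 ± 0.173 TPM (SD, n = 4) with LPL overexpression and 3.43 ± 0.164 TPM (SD, n = 3) in controls and did not pass (adjusted p = 0.0916 in edgeR), but passed, as higher, with library totals only (adjusted p = 0.0321 in edgeR). The chemokine ligand that fell was Ccl6 (-1.29 on the log2 scale, SE 0.36), named after its values were seen. It was low in both groups, with 23 reads over the LPL overexpression libraries and 43 over the controls. Cmklr1 and Ccl6 passed the filter through the controls, where they were higher. The highest value of this list in any library was 17.95 TPM, of Pf4, against 272 TPM or more for Cxcl12.

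Low oxygen is known to raise Adm, Cxcr4 and Ackr3 in other settings. Of 26 other genes of this response, 25 were tested, 7 rose, 9 fell and 9 did not pass. The share called was 64.0%, beside 43.2% of all genes tested, and nothing particular to the list is read from it. The median difference of the tested genes was -0.10 on the log2 scale. Ndrg1 fell to 181 ± 4.13 TPM (SD, n = 4) with LPL overexpression, against 262 ± 3.96 TPM (SD, n = 3) in controls (log2 fold change -0.56, SE 0.02, adjusted p = 1.12e-25 in edgeR). Egln3, an oxygen-sensing prolyl hydroxylase gene, differed by -0.47 on the log2 scale (SE 0.04). Hk2, the gene of hexokinase 2, was higher by 0.30 on the log2 scale (SE 0.05), and Pfkfb3, another gene of glycolysis, by 0.26 (SE 0.04). Ldha was at 839 ± 17.4 TPM (SD, n = 4) with LPL overexpression and 785 ± 15.1 TPM (SD, n = 3) in controls, a difference of 0.07 on the log2 scale (SE 0.02, adjusted p = 0.0217 in edgeR), and its call ended without control replicate 1 (adjusted p = 0.132 in edgeR) and without control replicate 2 (0.105).

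**Figure D4:**
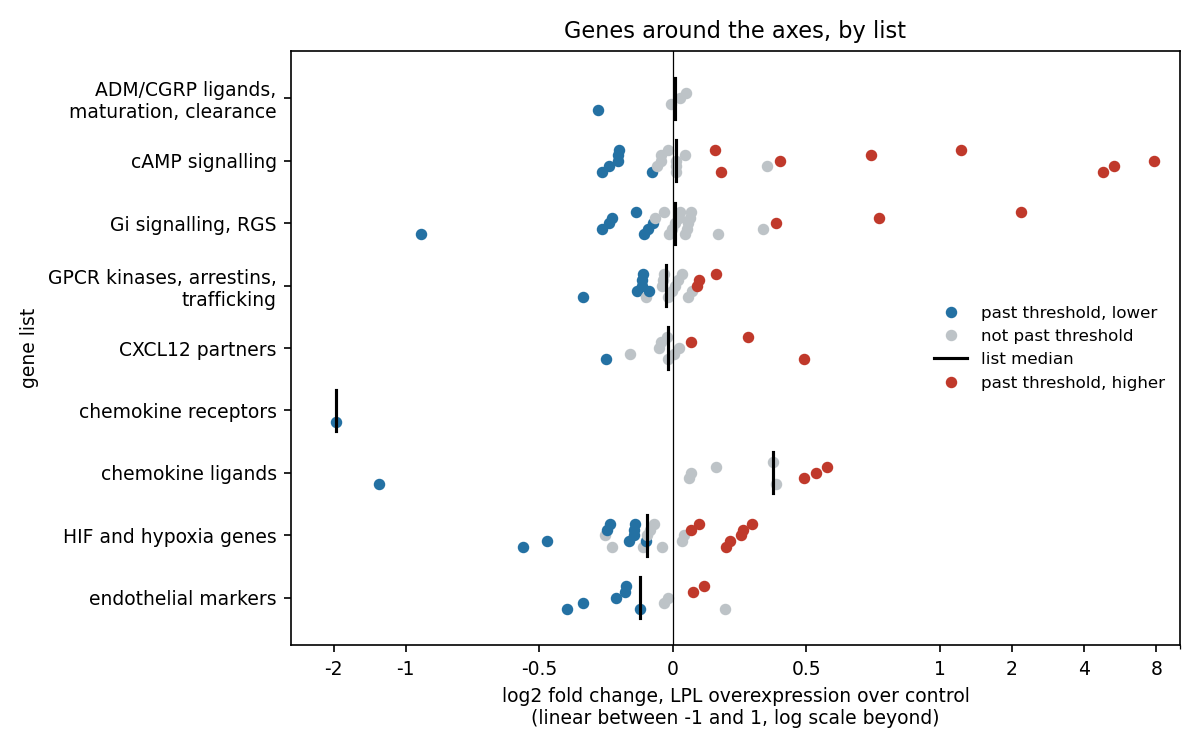
Log2 fold change of LPL overexpression over control for each tested gene of 8 lists around the axes and of the endothelial markers, with genes past the threshold in red (higher) or blue (lower) and list medians as black bars. The axis is linear between -1 and 1 and logarithmic beyond. The point farthest right is Adcy2, with 110 reads over the LPL overexpression libraries and 0 over the controls, whose fitted value depends on the prior count. The medians of the cyclic AMP and Gi lists lie at 0.01.

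Markers of the cells around the endothelium were set beside these values. Of 11 tested endothelial markers 2 rose (Esam and Egfl7, named after their values were seen) and 6 fell, which is 72.7% beside 43.2% of all genes tested, their median being -0.12 on the log2 scale, and Pecam1 had the largest fall, of -0.40 (SE 0.02). The log2 fold changes of Calcrl and Ackr3 were below that of every tested endothelial marker, and that of Cxcl12 was close to the -0.17 of Cdh5. Of 5 tested lymphatic markers 1 rose (Prox1, named after its values were seen) and 2 fell (60.0% called, beside 43.2% of all genes tested). Prox1, with 70 reads over the LPL overexpression libraries and 3 over the controls, passed the filter only through the LPL overexpression libraries. Lyve1, a hyaluronan receptor, fell to 51.1 ± 2.51 TPM (SD, n = 4) with LPL overexpression, against 60.9 ± 0.692 TPM (SD, n = 3) in controls, and Flt4 differed by -0.19 on the log2 scale (SE 0.04). Markers of leukocytes, in which Cxcr4 is usually high, had at most 4 reads over each group for 7 of the 8. The other, Cd68, rose to 261 ± 11.1 TPM (SD, n = 4) with LPL overexpression, against 194 ± 8.67 TPM (SD, n = 3) in controls (log2 fold change 0.40, SE 0.03, adjusted p = 4.30e-14 in edgeR), and its part in the values of Cxcr4 was not tested. Mural cell and fibroblast markers come from cells that often supply Cxcl12. Their sum was 3.57 to 3.96 TPM in LPL overexpression libraries and 2.33 to 2.51 TPM in controls, with Dcn and Lum at 0 reads. Of 4 tested, 2 were higher (Col1a2 and Cspg4, named after their values were seen), beside 21.9% higher among all genes tested. Col1a2 had 139 reads over the LPL overexpression libraries and 2 over the controls. Cspg4 had 84 reads over the LPL overexpression libraries and 1 over the controls. Both passed the filter only through the LPL overexpression libraries. A call as higher was then close to fixed by the filter, so nothing is read from these calls. Of the pancreatic islet and exocrine markers 1 of 10 was tested, Krt19, which did not pass.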

How the data were processed

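Per the submitters' processing notes, the authors aligned reads with STAR to mm10, with versions and counting options not given in the sources used here. The deposited counts per gene are whole numbers for each read orientation; the TruSeq stranded kit reads in reverse, and those counts were used. The deposited TPM column is scaled to gene length and depth. Exonic lengths in the files equalled those of GENCODE vM21 for all 8 genes. Other deposited columns were not used.

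Counts were tested with edgeR 4.0.16 in R 4.3.3 (quasi-likelihood F test, TMM, filterByExpr, robust dispersion, group as the only term), with Benjamini-Hochberg adjustment over 13639 genes and a threshold of 0.05. Each SE was derived from its fold change and F statistic. Intervals and floors cover counting error only, or the spread between libraries for fold changes. Alternatives were DESeq2 1.42.0, limma 3.58.1 on log2 TPM, other scaling factors, no filter, both orientations, a replicate block and leaving out each library. 

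The 8 genes and the lists were chosen with earlier results of these data known. Named genes are the 8, and from each list up to 4 past the threshold with at least 2 CPM by size of change and the 2 most abundant by CPM; any other gene is marked as picked with its values known or serves as a cell marker. For likeness, 3 genes per member were taken.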

Additional observations from a re-analysis of the deposited data

Results flagged for a closer look

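In groups of 4 libraries, values far from the rest were sought for the 7 tested axis genes and 51 named list genes, and 2 of the 58 stood out, where chance alone picks about 1 in 20. Adm was 86.6 TPM in LPL overexpression replicate 4, with the nearest other LPL overexpression library at 81.7 TPM. Lyve1 was 54.9 TPM in LPL overexpression replicate 2, with the nearest at 50.2 TPM.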

How the results depend on the processing

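All 7 tested axis genes kept their direction and stayed past the threshold under each of the 16 alternatives. The log2 fold change ranged from 0.35 to 0.41 for Adm, -1.07 to -0.94 for Calcrl, -1.08 to -0.9999 for Ackr3, -0.28 to -0.22 for Ramp2, -0.66 to -0.44 for Ramp3, -0.20 to -0.14 for Cxcl12 and -0.99 to -0.58 for Cxcr4. The highest adjusted p for Cxcr4 was 0.0479, so its few reads are the limit of this set. Outside the 7, of 816 values for 51 named list genes 12 lost and 10 gained their call and 0 reversed; of 240 list counts 9 moved by over 1.5 times. One setting, added after the data had been seen, moved a level. With its reads unchanged and its length cut to the bases that Ramp2 does not share with Vps25, which holds only if no read of the shared bases was counted to it, its level was 202 TPM with LPL overexpression and 237 TPM in controls. Over all genes, 5888 were past the threshold and 4850 with DESeq2. Replicate numbers are shared between the groups, and the labels do not say that a shared number marks a shared culture or day. Across genes, deviations from the group mean had r of -0.02, -0.04 and 0.02 between same-numbered libraries 1 to 3. Differently numbered pairs ranged from -0.05 to 0.04. Because deviations were centred within small groups, these values cannot tell whether same-numbered libraries had a shared origin. With the replicate block, in which LPL overexpression replicate 4 has no partner, 5794 genes were past the threshold, and the log2 fold changes were 0.35 for Adm, -1.03 for Calcrl, -1.05 for Ackr3, -0.26 for Ramp2, -0.64 for Ramp3, -0.17 for Cxcl12 and -0.89 for Cxcr4.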
